A study of Mus musculus with 6 samples.

Results

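Autophagy and mitophagy genes were followed by 10 members, Ulk1, Becn1, Atg7, Map1lc3a, Map1lc3b, Gabarap, Gabarapl1, Sqstm1, Bnip3 and Ctsl, which were taken by their symbols from the 19458 genes listed for each library. All 10 were found in every library. RNA-seq was made of the gastrocnemius, the large calf muscle, of C57BL/6 mice aged 9 weeks: 3 libraries labelled tmem182-/- (knockout) and 3 labelled wild type. The knocked-out gene encodes a membrane protein of muscle; how the allele was made, the sex of the mice and whether each library came from 1 mouse were not stated, so p-values measure the spread between libraries, which may be technical in part. The source names of knockout libraries 2 and 3 carry the numbers of other Tmem genes, whereas their genotype field names Tmem182, and the extraction text of all 6 libraries speaks of cultured muscle cells. Tmem182 was at 6.23, 4.30 and 2.17 FPKM in knockout libraries 1, 2 and 3, against 147.48, 121.39 and 120.97 FPKM in wild-type libraries 1, 2 and 3.

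In autophagy a double membrane grows around cytoplasm or an organelle, closes, and is delivered to the lysosome for digestion. The ULK1 kinase complex starts the process, the Beclin 1 lipid kinase complex marks the membrane, and ATG7 drives the attachment of ATG8 proteins (the LC3 and GABARAP families) to lipid. Receptors such as SQSTM1 and BNIP3 tie cargo or mitochondria to those ATG8 proteins, and lysosomal cathepsins degrade what arrives. In skeletal muscle the pathway is known to be induced by fasting and denervation, and FOXO3 is known to switch on several of its genes in mouse muscle. Transcript levels do not measure the flux through the pathway.

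Library totals ranged from 16212341 to 18672630 expected counts. FPKM (fragments per kilobase of transcript, scaled for depth) are printed as deposited and rest on the library total, while log2 fold changes (log2FC, knockout over wild type) come from edgeR's quasi-likelihood test on counts scaled by TMM, a method that keeps a few very abundant genes from setting the scale. The difference matters for knockout library 1. Its 10 most abundant genes held 22.0% of its counts, against 28.2% to 31.9% in the other 5 libraries, and its TMM factor was 1.19, against 0.933 to 1.04. The same library had the highest summed level of the markers for slow fibres, macrophages, adipocytes, endothelial cells, fibro-adipogenic progenitors, red blood cells and Schwann cells, and the lowest of the fast fibre markers. Fast fibre markers, which check the tissue label, summed to 71656 to 111656 FPKM over all 6 libraries.

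No member passed the test between the genotypes. Of the 10 members 0 passed an adjusted p of 0.05 in edgeR, where 1 of 12774 tested genes, or 0.00783%, passed, and that gene was Tmem182. DESeq2 called 0 of the 10 as well. An unadjusted p under 0.05 was reached by Bnip3 alone of the 10, against 3.55% of all tested genes, 2.07% with the knockout higher and 1.48% with it lower. The knockout had the higher mean for 4 members and the lower mean for 6. Higher and lower means are read from the sign of the log2FC here and for the lists below. The split depends on the scale: in mean FPKM Ctsl alone of the members was lower in the knockout, at 28.0 against 28.4 FPKM. The median log2FC was -0.02, against 0.00 over all tested genes. All 10 passed the filter on low counts, with no fewer than 214 expected counts in any library. The 95% intervals of all 10 log2FC values lay within -1 and 1, and those of 8 lay within -0.5 and 0.5; Gabarapl1 and Sqstm1 were the exceptions. Adjusted p-values of the 10 members in edgeR ran from 0.994 to 0.999.

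The levels of the members spanned 3.07 to 317.82 FPKM. On the FPKM scale, which corrects for transcript length, Sqstm1 was the most abundant at a mean of 257.5 FPKM over the 6 libraries, followed by Map1lc3a at 173.2, Gabarap at 115.5, Bnip3 at 92.5 and Map1lc3b at 88.4 FPKM. Ctsl averaged 28.2, Ulk1 25.1, Becn1 24.1, Gabarapl1 15.8 and Atg7 3.45 FPKM. Neighbours in this order overlapped in their ranges, except that Map1lc3a lay above Gabarap, Map1lc3b above Ctsl, and Gabarapl1 above Atg7 in every comparison of libraries.

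**Figure D1:**
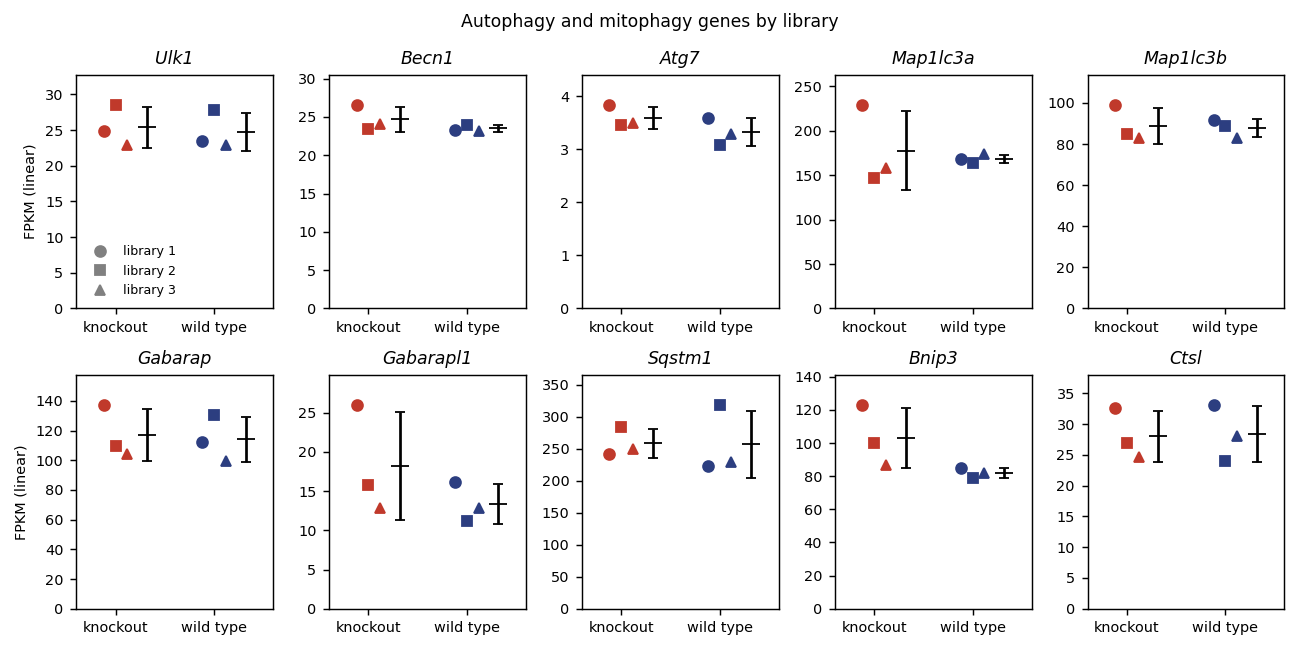
FPKM of the 10 genes (vertical axes, linear, starting at 0) in knockout libraries (left, red) and wild-type libraries (right, blue). Marker shape gives the library number, which the main test did not use to pair libraries, and black bars give the mean and SD (n = 3). Only Bnip3 has all knockout values, from 86.79 to 122.72, above all wild-type values, from 78.62 to 85.19.

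Bnip3 was the member whose genotypes did not overlap. It encodes a mitochondrial outer membrane protein that binds ATG8 proteins and marks mitochondria for autophagy. Bnip3 was at 122.72, 99.75 and 86.79 FPKM in knockout libraries 1, 2 and 3, against 85.19, 78.62 and 81.84 FPKM in wild-type libraries 1, 2 and 3. Every knockout library was above every wild-type library, although knockout library 3 and wild-type library 1 lay close together. On the TMM-scaled CPM scale, which takes no account of length, the values were 181.1, 182.4 and 161.2 in knockout muscle, against 142.9, 143.4 and 153.5 in wild type. Knockout libraries 1 and 2 were alike on that scale. The fold change was 1.19 (log2 0.25, SE 0.10, 95% interval 0.02 to 0.49), with an edgeR adjusted p of 0.994. Over the alternatives its adjusted p ranged from 0.845 to 1. In a two-sided exact permutation test on log2(TMM-scaled CPM + 1) p was 0.1, which is the lowest value possible with 3 libraries a group. Groups that do not overlap on the TMM-scaled CPM scale were seen for 9.18% of all tested genes, 4.67% with the knockout higher and 4.51% with it lower, so 1 of 10 members is near that background. In FPKM the same held for 7.55% of tested genes, 5.86% higher and 1.7% lower in the knockout. The log2FC was 0.23 without knockout library 1.

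Bnip3 has the Entrez number 12176 and occupies the minus strand of chromosome 7, bases 138890836 to 138909519 in GRCm38, with 5 annotated transcripts. The antisense gene Gm45507 overlaps it, as does the processed pseudogene Gm18258 on the opposite strand. Near-identical pseudogenes lie elsewhere, the closest being Gm16439 with 98.9% identity over 564 bases. These genes are not among those listed, and whether reads from them were counted under Bnip3 is not known. The Bnip3 counts were whole numbers in every library. That cannot settle the question, because reads of a gene left out of the counting would not be divided.

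The stretches of promoter before Bnip3 and before Gabarapl1 are shown because these members had the largest fold changes of the 10. Both are written 5′ to 3′ on the gene's own strand, are taken from the RefSeq promoter table of GRCm38.p6, and stop before the first base that GENCODE or RefSeq places inside the gene. Capitals mark CACGTG (the E-box hexamer, which reads the same on both strands and contains ACGTG, the core of hypoxia response elements) in Bnip3 and TAAACA (a core of FOXO binding sites) in Gabarapl1. The Bnip3 stretch is chr7:138909520-138909756 on the minus strand and 72.6% G or C. The Gabarapl1 stretch is chr6:129532942-129533159 on the plus strand and 43.6% G or C.
Bnip3: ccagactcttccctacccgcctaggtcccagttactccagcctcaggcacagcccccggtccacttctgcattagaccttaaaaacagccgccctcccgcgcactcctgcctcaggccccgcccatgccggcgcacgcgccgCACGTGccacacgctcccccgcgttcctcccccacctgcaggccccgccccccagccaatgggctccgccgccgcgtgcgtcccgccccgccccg
Gabarapl1: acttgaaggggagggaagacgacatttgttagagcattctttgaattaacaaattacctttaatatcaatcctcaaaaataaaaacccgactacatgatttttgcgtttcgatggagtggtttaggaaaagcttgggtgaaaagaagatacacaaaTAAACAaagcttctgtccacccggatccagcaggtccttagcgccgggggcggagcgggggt

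The promoter table held 8 of the 10 members, all but Map1lc3a and Becn1, with 300 bases each. CACGTG occurred in 3 of the 8, Bnip3, Atg7 and Ctsl, and in 7.15% of all 32851 promoters in the table. ACGTG, searched on both strands and overlapping CACGTG, occurred in 4 of the 8, the same members and Gabarap, against 19.6% of all promoters. TAAACA, searched on both strands, occurred in Gabarapl1 and Ctsl, against 13.4% of all promoters. The CLEAR element bound by TFEB, a longer palindrome around CACGTG, occurred in 0 of the 8 and in 0.326% of all. These matches describe letters in a window and were not tied to binding.

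Gabarapl1 had the largest fold change of the members, and its highest library was 2.32 times its lowest in FPKM. It encodes an ATG8 protein of the GABARAP branch. Gabarapl1 was at 25.95, 15.80 and 12.81 FPKM in knockout libraries 1, 2 and 3, against 16.20, 11.18 and 12.80 FPKM in wild-type libraries 1, 2 and 3. In FPKM knockout library 1 stood above the other 5, and the remaining knockout values lay inside the wild-type range. In TMM-scaled CPM it was at 38.7, 29.2 and 24.0 in knockout muscle, against 27.4, 20.6 and 24.2 in wild type, so knockout libraries 1 and 2 were above all wild-type libraries and knockout library 3 was not. The log2FC was 0.35 (SE 0.19, 95% interval -0.09 to 0.78, edgeR adjusted p = 0.994), and it was 0.14 without knockout library 1. Within groups the coefficient of variation was 37.9% in the knockout and 19.1% in wild type. The summed level of Schwann cell markers was 302.1, 48.6 and 86.3 FPKM in knockout libraries 1, 2 and 3, against 198.5, 19.7 and 37.6 FPKM in wild-type libraries 1, 2 and 3. That of endothelial markers was 133.8, 79.4 and 55.4 FPKM in knockout muscle, against 97.4, 55.6 and 77.7 FPKM in wild-type muscle. In both marker lists knockout library 1 was highest and wild-type library 1 next, as for Gabarapl1 in FPKM but not in TMM-scaled CPM, and the adipocyte and fibro-adipogenic progenitor sums had the same 2 libraries on top. The higher mean was in the knockout for 5 of 5 Schwann cell and 6 of 6 endothelial markers, with 0 at 0 in any library. Both lists were singled out after their values were seen, and their part in the result was not tested. In bulk muscle, fewer cells of a type and less RNA per cell cannot be told apart.

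Gabarapl1 has the Entrez number 57436 and occupies the plus strand of chromosome 6, bases 129533160 to 129542346. An opposite-strand transcript, 1700101I11Rik, starts inside the gene and runs through the promoter stretch printed above, and Gm44243 overlaps on the same strand. The sources used here do not state whether strand entered the counting.

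**Figure D2:**
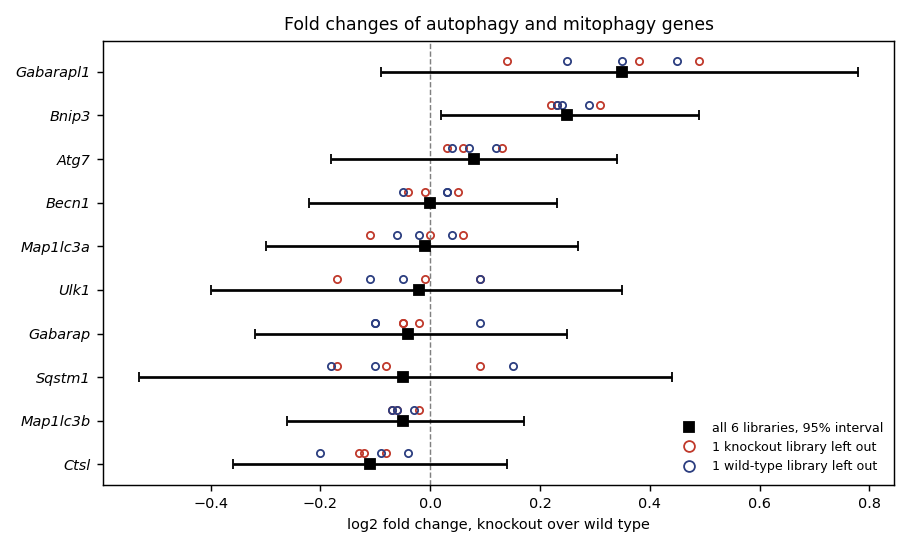
Log2FC of the 10 genes, knockout over wild type (horizontal axis), from edgeR on all 6 libraries with 95% intervals (black), and with 1 library left out (open circles, red for a knockout library and blue for a wild-type library). Bnip3 stays between 0.22 and 0.31, while Gabarapl1 runs from 0.14 without knockout library 1 to 0.49 without knockout library 3.

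The other ATG8 members had overlapping values and log2FC values near 0. Map1lc3a encodes LC3A, and it was at 229.09, 146.50 and 157.77 FPKM in knockout libraries 1, 2 and 3, against 168.11, 164.01 and 173.43 FPKM in wild-type libraries 1, 2 and 3. Knockout library 1 was the highest of the 6 and the other knockout libraries were the lowest, so the groups overlapped. The log2FC was -0.01 (SE 0.12, 95% interval -0.30 to 0.27). Map1lc3b encodes LC3B, the form most often used as an autophagosome marker, and was at 98.97, 84.72 and 83.16 FPKM in knockout muscle, against 91.83, 88.54 and 82.89 FPKM in wild-type muscle. It was the steadiest ATG8 member on the FPKM scale, with the highest of 6 libraries 1.19 times the lowest, and its log2FC was -0.05 (SE 0.09, 95% interval -0.26 to 0.17). Gabarap was at 136.96, 109.77 and 104.53 FPKM in knockout muscle, against 112.12, 130.27 and 99.56 FPKM in wild-type muscle. Its high values were those of knockout library 1 and wild-type library 2, and its log2FC was -0.04 (SE 0.12, 95% interval -0.32 to 0.25). With library totals in place of TMM the signs of these 3 log2FC values turned, to 0.08 for Map1lc3a, 0.02 for Map1lc3b and 0.04 for Gabarap. Map1lc3a lies on chromosome 2 from 155276297 to 155278073 and Gabarap on chromosome 11 from 69991143 to 69994951, both on the plus strand with no overlapping gene. Map1lc3b, on the plus strand of chromosome 8, bases 121590361 to 121598760, overlaps the end of Zcchc14 on the opposite strand and has near-identical pseudogenes, among them Gm6055 with 99.7% identity over 378 bases.

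The make-up of the ATG8 family overlapped between the genotypes as well. Its 5 genes, the 4 members and Gabarapl2, summed to 548.2, 412.9 and 415.3 FPKM in knockout libraries 1, 2 and 3, against 444.1, 456.9 and 422.8 FPKM in wild-type libraries 1, 2 and 3. Map1lc3a supplied 35.5% to 41.8% of that sum in the knockout and 35.9% to 41.0% in wild type. Gabarap supplied up to 26.6% in the knockout and up to 28.5% in wild type, and Map1lc3b supplied 18.1% to 20.5% in the knockout and 19.4% to 20.7% in wild type. Gabarapl1 had the smallest share, at 3.08% to 4.73% in the knockout and 2.45% to 3.65% in wild type. Gabarapl2, which was no member, had a log2FC of -0.08 (SE 0.13).

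**Figure D3:**
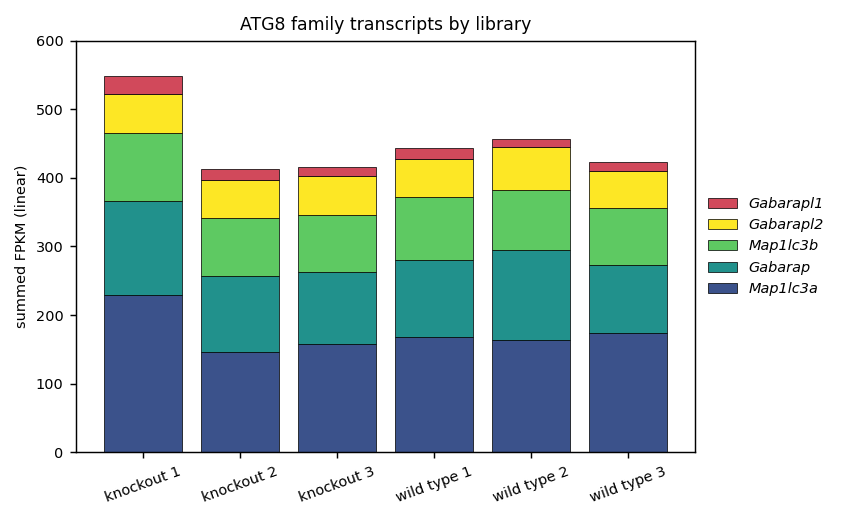
FPKM of the 5 ATG8 genes (vertical axis, linear, stacked) in each of the 3 knockout libraries (left) and 3 wild-type libraries (right). Map1lc3a is the largest part of every bar and Gabarapl1 the smallest, and knockout library 1 has the tallest bar at 548.2 FPKM.

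The genes that start autophagosome formation overlapped between the genotypes, with log2FC values near 0. Ulk1, the initiating kinase, was at 24.81, 28.50 and 22.85 FPKM in knockout libraries 1, 2 and 3, against 23.51, 27.84 and 22.92 FPKM in wild-type libraries 1, 2 and 3. The ranges nearly coincided, with the second library of each group highest. The log2FC was -0.02 (SE 0.16, 95% interval -0.40 to 0.35). Becn1, the regulatory subunit of the class III PI3-kinase complex, was at 26.55, 23.48 and 24.05 FPKM in knockout muscle, against 23.29, 23.99 and 23.21 FPKM in wild-type muscle. Its wild-type libraries varied by 1.83%, the smallest coefficient of variation among the members, and its log2FC was 0.00 (SE 0.10, 95% interval -0.22 to 0.23). Becn1 overlaps Cntd1 on the opposite strand, which was at no more than 0.18 FPKM. Ulk1 lies on chromosome 5 from 110784488 to 110810097 and Becn1 on chromosome 11 from 101285952 to 101302286, both on the minus strand.

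Atg7, the E1-like enzyme that activates ATG8 proteins and ATG12, was the least abundant member. Atg7 was at 3.83, 3.45 and 3.49 FPKM in knockout libraries 1, 2 and 3, against 3.59, 3.07 and 3.29 FPKM in wild-type libraries 1, 2 and 3. The groups overlapped, and the log2FC was 0.08 (SE 0.11, 95% interval -0.18 to 0.34). The gene is on the plus strand of chromosome 6, bases 114643097 to 114860614, with 3 processed pseudogenes inside it.

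Sqstm1 varied more within wild type than between the genotypes. It encodes the cargo receptor SQSTM1, which binds ubiquitinated proteins and ATG8 proteins and is itself degraded by autophagy. Sqstm1 was at 241.11, 284.75 and 249.14 FPKM in knockout libraries 1, 2 and 3, against 222.92, 317.82 and 229.27 FPKM in wild-type libraries 1, 2 and 3. The wild-type libraries held both the highest and the lowest value, and the knockout libraries lay between them. The means were 258.3 ± 23.2 FPKM in knockout muscle and 256.7 ± 53.1 FPKM in wild-type muscle (SD over 3 libraries each), with a log2FC of -0.05 (SE 0.21, 95% interval -0.53 to 0.44). Its sign turned without knockout library 1 (0.09) or wild-type library 2 (0.15). The gene lies on the minus strand of chromosome 11, bases 50199366 to 50210827, and its end overlaps Mrnip on the opposite strand, which was at 3.10 to 5.04 FPKM.

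Ctsl, a lysosomal cysteine protease, was the member with the lowest log2FC. Ctsl was at 32.60, 26.86 and 24.60 FPKM in knockout libraries 1, 2 and 3, against 33.04, 24.00 and 28.12 FPKM in wild-type libraries 1, 2 and 3. Library 1 was the highest of each group and the groups overlapped. The log2FC was -0.11 (SE 0.11, 95% interval -0.36 to 0.14, adjusted p = 0.994), and it was -0.04 without wild-type library 1, -0.20 without wild-type library 2, -0.04 with library totals and -0.02 with limma on FPKM. Ctsl lies on the minus strand of chromosome 13, bases 64359337 to 64370890. The processed pseudogene Gm49230 is annotated inside the Ctsl gene on the same strand, bases 64361343 to 64361737. It is identical to a Ctsl transcript over 395 bases, which may be the same bases under both names and not a separate copy. Ctsl and Becn1 were the members whose counts were not all whole numbers, which marks reads divided by estimation.

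**Figure D4:**
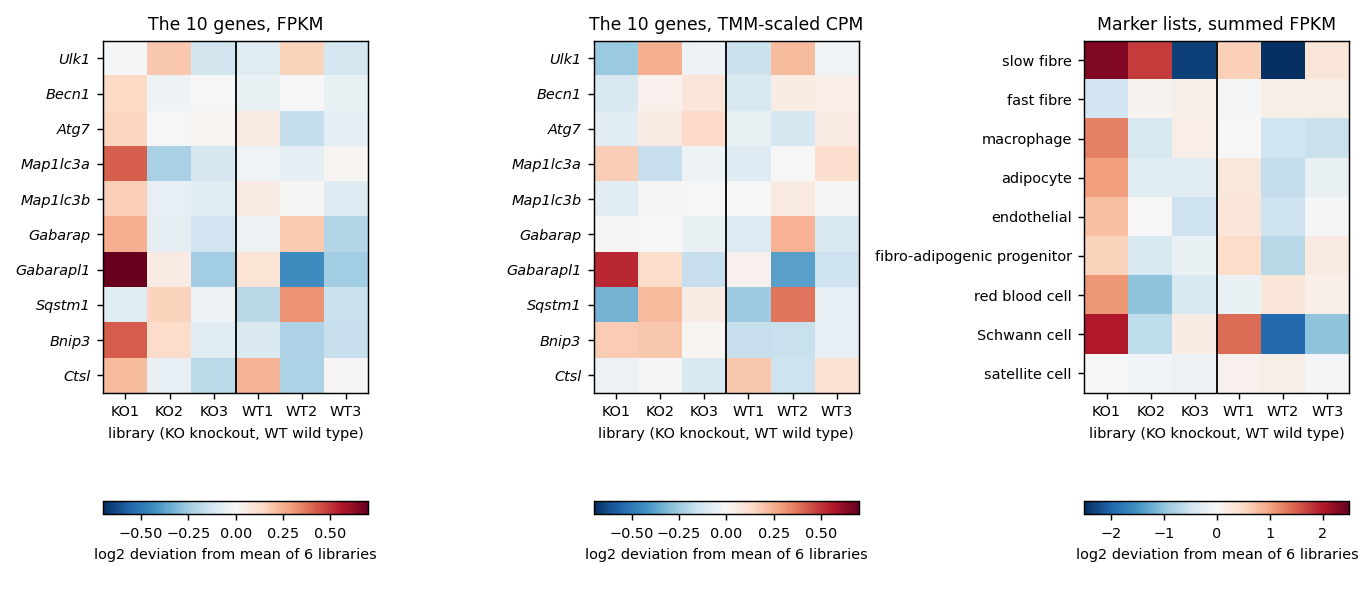
Log2 deviation of each library (columns, knockout left of the black line and wild type right of it) from the mean of the 6 libraries. The left map gives the FPKM of the 10 genes, the middle map their TMM-scaled CPM, and the right map the summed FPKM of 9 marker lists, with its own colour scale. Knockout library 1 is the highest library for 7 of the 10 genes in FPKM and for 2 of the 10 in TMM-scaled CPM.

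Which library was highest for a member depended on the scale. Knockout library 1 was highest for 7 of the 10 in FPKM, and for 2 of the 10, Map1lc3a and Gabarapl1, in TMM-scaled CPM. Slow fibre markers summed to 2832, 1904 and 112.7 FPKM in knockout libraries 1, 2 and 3, against 866.9, 92.3 and 708.1 FPKM in wild-type libraries 1, 2 and 3. Apart from knockout library 3, the libraries stood in the same order for Bnip3 FPKM and for the slow fibre sum. In TMM-scaled CPM that order was lost. Bnip3 was then highest in knockout library 2, at 182.4, and lowest in wild-type library 1, at 142.9. The part of fibre composition in the Bnip3 values was not tested.

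The genes whose profile over the 6 libraries lay nearest to a member's were found by the root mean square difference of centred log2(FPKM + 1) among 6128 genes with a mean of at least 5 FPKM. For Bnip3 these were Nxn, Hspa5 and Trak2, at differences of 0.0256, 0.0391 and 0.0396. Nxn encodes a thioredoxin-like protein, Hspa5 the main chaperone of the endoplasmic reticulum and Trak2 an adaptor for mitochondrial transport. Hspa5 was at 56.86, 45.03 and 40.71 FPKM in knockout libraries 1, 2 and 3, against 38.28, 33.73 and 36.36 FPKM in wild-type libraries 1, 2 and 3, with a log2FC of 0.32 (SE 0.10, adjusted p = 0.994). A genotype difference like that of Bnip3 follows from choosing genes by its profile, and shared regulation was not tested. For Gabarapl1 the nearest were Npr2, Akap2 and Loxl1, at 0.0306, 0.0455 and 0.0462. For Ctsl they were Cox6a2, Lamb2 and Selenoo, at 0.0265, 0.0384 and 0.0416.

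The wider pathway was read from 13 lists by role, holding 122 genes with the members included, and all 122 were tested. Of these 0 passed in edgeR and 0 in DESeq2. Before adjustment, 5 genes or 4.1% lay under 0.05, against 3.55% of all tested genes. Those higher in the knockout were Bnip3, Optn and Atp6v1h, and those lower were Rubcn and Atg16l1. The median log2FC over the 122 genes was -0.02, with 55 higher and 67 lower means in the knockout. Small list medians depend on the scale: with library totals in place of TMM the median of all tested genes was 0.08, and of the 9 lists with a negative median 7 then lay between 0.00 and 0.06, while the FOXO and TFEB list was at -0.03 and the mTORC1 and AMPK list at -0.02.

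In the mitophagy list 4 of 10 genes had a higher mean in the knockout, with a median log2FC of -0.03. Bnip3l, the paralogue of Bnip3 known for clearing mitochondria from maturing red cells, was at 14.61, 13.47 and 14.17 FPKM in knockout libraries 1, 2 and 3, against 14.31, 13.92 and 11.65 FPKM in wild-type libraries 1, 2 and 3 (log2FC 0.02, SE 0.11). The ratio of Bnip3 to Bnip3l in FPKM was 8.4, 7.41 and 6.12 in knockout muscle, against 5.95, 5.65 and 7.02 in wild type, so the ratios overlapped. Pink1, the kinase that senses damaged mitochondria, had a log2FC of -0.10 (SE 0.18). Pink1 was abundant, at 234.9 ± 24.2 FPKM in knockout muscle and 244.4 ± 32.8 FPKM in wild-type muscle (SD over 3 libraries each). Usp30, a mitochondrial deubiquitinase, had a log2FC of -0.21 (SE 0.13) and Bcl2l13, a mitophagy receptor, one of 0.08 (SE 0.10).

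Among 7 cargo receptors 4 had a higher mean in the knockout and the median log2FC was 0.07. Optn, a receptor for ubiquitinated cargo that also acts in mitophagy, was at 47.09, 39.78 and 38.69 FPKM in knockout libraries 1, 2 and 3, against 35.39, 33.95 and 31.74 FPKM in wild-type libraries 1, 2 and 3. All knockout values were above all wild-type values, as for 5.86% of all tested genes in FPKM. The log2FC was 0.22 (SE 0.09, edgeR adjusted p = 0.994). Tax1bp1, a related receptor, had a log2FC of 0.21 (SE 0.10) and Tollip one of -0.17 (SE 0.09).

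The initiation and nucleation lists had medians of -0.02 and -0.01. Rb1cc1, the FIP200 scaffold of the ULK1 complex, was at 6.33, 4.93 and 4.48 FPKM in knockout libraries 1, 2 and 3, against 4.34, 2.68 and 4.29 FPKM in wild-type libraries 1, 2 and 3 (log2FC 0.38, SE 0.17, or 0.20 without wild-type library 2). Ulk2 and Atg101 had log2FC values of -0.10 (SE 0.19) and -0.22 (SE 0.17), and leaving out knockout library 1 put Atg101 at -0.07, leaving out wild-type library 2 at -0.09. Rubcn, an inhibitor of the Beclin 1 complex, had one of -0.27 (SE 0.10, edgeR adjusted p = 0.994), at 11.2 ± 1.13 FPKM in knockout muscle and 12.9 ± 0.769 FPKM in wild-type muscle (SD over 3 libraries each). Uvrag, a subunit of one form of that complex, and Ambra1, its activator, had log2FC values of 0.22 (SE 0.11) and -0.19 (SE 0.11).

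The membrane supply list had 6 of 9 lower means and a median of -0.03, led by Atg9a, Atg2a and Atg2b at -0.21 (SE 0.14), -0.12 (SE 0.09) and -0.11 (SE 0.12). The conjugation list had 7 of 11 higher means and a median of 0.05. Atg16l1, which places the conjugation complex on the membrane, was at 6.87, 5.95 and 5.66 FPKM in knockout libraries 1, 2 and 3, against 7.52, 6.71 and 6.68 FPKM in wild-type libraries 1, 2 and 3. Its ranges overlapped in FPKM but not in TMM-scaled CPM, and the log2FC was -0.25 (SE 0.08, edgeR adjusted p = 0.994). Atg4a, a protease that processes ATG8 proteins, and Atg10, the E2-like enzyme for ATG12, had log2FC values of 0.20 (SE 0.10) and 0.24 (SE 0.18).

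The fusion list had 8 of 13 lower means and a median of -0.07, with Ykt6, Epg5 and Vps33a at 0.12 (SE 0.09), -0.17 (SE 0.15) and -0.14 (SE 0.12). Among 12 cathepsins and other proteases 8 had higher means and the median was 0.09. Ctss, a cathepsin typical of macrophages, had the largest log2FC of the list at 1.2 (SE 0.55, edgeR adjusted p = 0.994), or 0.52 without knockout library 1. It was at 3.21, 1.18 and 0.86 FPKM in knockout libraries 1, 2 and 3, against 1.14, 0.36 and 0.53 FPKM in wild-type libraries 1, 2 and 3. These levels rest on few reads, 70, 25 and 20 expected counts in knockout muscle, against 27, 9 and 13 in wild-type muscle. The 10 macrophage markers summed to 86.6, 27.8 and 40.3 FPKM in knockout muscle, against 36.1, 25.5 and 24.5 FPKM in wild-type muscle, 10 of 10 had the higher mean in the knockout and 0 were at 0 in any library; their part in the result was not tested. Ctsc and Lgmn, lysosomal proteases, had log2FC values of 0.22 (SE 0.10) and 0.29 (SE 0.17).

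Lysosomal membrane proteins and acid hydrolases had 7 of 12 higher means and a median of 0.05. Lamp2, which is needed for autophagosome clearance in muscle, had a log2FC of 0.09 (SE 0.12), and Mcoln1, a lysosomal ion channel, had one of -0.13 (SE 0.12). The vacuolar proton pump had 8 of 14 lower means and a median of -0.04. Atp6v1h, a subunit of the pump's cytosolic part, was at 6.20, 4.45 and 3.73 FPKM in knockout libraries 1, 2 and 3, against 3.14, 3.32 and 3.33 FPKM in wild-type libraries 1, 2 and 3. The knockout was wholly higher, as for 5.86% of all tested genes in FPKM, and the log2FC was 0.47 (SE 0.16, edgeR adjusted p = 0.994). Atp6ap1 and Atp6v1a had log2FC values of -0.17 (SE 0.09) and 0.18 (SE 0.10).

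The regulators upstream were mostly lower in mean, by small amounts. Of 6 FOXO and TFEB family genes 5 had lower means in the knockout, with a median of -0.11. Foxo3 was at 4.54 ± 0.551 FPKM in knockout muscle and 4.72 ± 0.231 FPKM in wild-type muscle (SD over 3 libraries each; log2FC -0.13, SE 0.08). Tfeb, the transcription factor of lysosomal genes, was at 42.0 ± 5.38 FPKM in knockout muscle and 45.5 ± 9.14 FPKM in wild-type muscle (log2FC -0.16, SE 0.21). Foxo4 and Tfe3 had log2FC values of -0.16 (SE 0.11) and -0.08 (SE 0.11). Of 10 mTORC1 and AMPK genes 7 had lower means, with a median of -0.09, among them Mlst8 at -0.27 (SE 0.13) and Prkab2 at -0.27 (SE 0.22), whereas Prkaa1 was at 0.16 (SE 0.13). Without knockout library 1 Prkab2 was at -0.07 and Prkaa1 at 0.02, and without wild-type library 2 Mlst8 was at -0.14. Fbxo32, the atrophy ubiquitin ligase that FOXO3 also controls in mouse muscle, was at 52.08, 70.18 and 32.34 FPKM in knockout libraries 1, 2 and 3, against 28.32, 19.90 and 31.56 FPKM in wild-type libraries 1, 2 and 3. Its groups did not overlap, although knockout library 3 lay close to wild-type library 3. In FPKM 5.86% of all tested genes had the knockout wholly higher. The Fbxo32 log2FC of 0.89 (SE 0.30, edgeR adjusted p = 0.994) was above the log2FC values of the 10 members. It was 0.52 without knockout library 2.

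**Figure D5:**
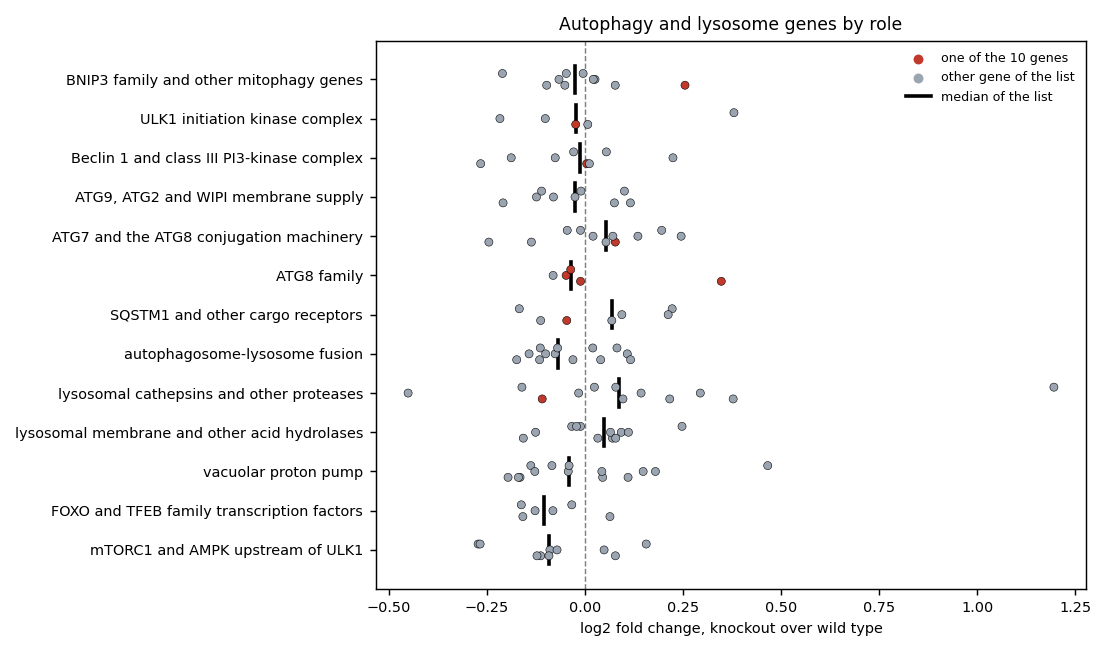
Log2FC, knockout over wild type (horizontal axis), of the 122 tested genes in 13 lists by role. Red points are the 10 genes described above, grey points are the other genes of the lists, and black bars are list medians. The medians lie between -0.11 and 0.09, and Ctss at 1.2 is the point farthest right.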

How the data were processed

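Gastrocnemius RNA-seq of 3 knockout and 3 wild-type libraries was used. The deposited read counts are expected counts per gene without normalization (26.2% to 27.5% have a fractional part). The deposited FPKM are the authors' values, scaled for length and library total. Per the submitters' processing notes, the build was GRCm38 and the tools included HISAT2 2.0.4, RSEM 1.2.12 and Bowtie2 2.2.5; the annotation was not stated. Rounded counts were filtered with filterByExpr (minimum count 10), scaled by TMM and compared by the two-sided quasi-likelihood test of edgeR 4.0.16 in R 4.3.3, adjusted by Benjamini-Hochberg over 12774 genes at a threshold of 0.05. The SE is |log2FC| over the root of the F statistic. The fits were tested on simulated data. No libraries agreed within counting noise (chi-square per degree of freedom at least 13.7).

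Members and gene lists were chosen with earlier results of these data known. Further named genes are, per list, up to 3 with the smallest p and a mean of at least 1 FPKM; Gabarapl2, Bnip3l, Pink1, Foxo3, Tfeb, Lamp2, Fbxo32 and Tmem182; and the 3 nearest profiles of the 3 members with the smallest p. A few genes of this rule are not reported here. Gene positions follow GENCODE M21 (GRCm38), and near copies come from megablast of transcripts (95% identity over 200 bases or more). As alternatives, libraries were left out singly, replicate number was added as a block, the filter was dropped or set to a mean of 5 FPKM, and DESeq2 size factors, the DESeq2 1.42.0 Wald test, limma 3.58.1 on log2(FPKM + 1) and an adjusted p of 0.10 were used. Library totals in place of TMM were chosen after seeing the data.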

Additional observations from a re-analysis of the deposited data

How the results depend on the processing

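The 10 members and the 122 pathway genes gave 0 calls under each of the 13 alternatives and at an adjusted p of 0.10. Over all genes 1 was called, Tmem182, against 6 with the DESeq2 Wald test and 0 to 1 with 1 library left out; the call was lost without knockout library 2 or without wild-type library 3. Whether replicate numbers pair the libraries was not settled. The correlations are of deviations: each gene's group mean was subtracted from its log2 CPM, and what was left was compared between libraries. For same-numbered libraries they were 0.524, 0.179 and -0.122. Knockout libraries 1 and 2 correlated best with the wild-type library of their own number. Knockout library 3 correlated best with wild-type library 2, at 0.427. With the replicate block 1 gene and 0 members were called, and 743 genes had p under 0.05 in edgeR, against 453 without it. Of 757 log2 fold changes, 36 turned sign. With library totals, chosen after seeing the data, these were Gabarap (0.04), Map1lc3a (0.08), Map1lc3b (0.02), Sqstm1 (0.01), Ulk1 (0.03), Lamb2 (0.03) and Selenoo (0.00), and with limma on FPKM Gabarap (0.04), Map1lc3a (0.05), Map1lc3b (0.02), Sqstm1 (0.02), Ulk1 (0.03), Lamb2 (0.02) and Selenoo (0.00). Map1lc3a was 0.00 at a mean of at least 5 FPKM, where Atg7 had no value. With 1 library left out the ranges that crossed 0 were -0.10 to 0.09 for Gabarap, -0.11 to 0.06 for Map1lc3a, -0.18 to 0.15 for Sqstm1, -0.17 to 0.09 for Ulk1, -0.05 to 0.05 for Becn1, -0.23 to 0.07 for Pink1, -0.22 to 0.07 for Ulk2, -0.15 to 0.01 for Gabarapl2, -0.04 to 0.10 for Bnip3l, -0.27 to 0.02 for Tfeb and -0.14 to 0.02 for Lamb2. Of the 48 named genes that kept their sign with 1 library left out, 30 moved by over 1.5 times, among them Gabarapl1 (0.14 to 0.49), Map1lc3b (-0.07 to -0.02), Atg7 (0.03 to 0.13) and Ctsl (-0.20 to -0.04). The cause was not tested. With 3 libraries a group, the 95% intervals of the members' log2 fold changes reached 0.21 to 0.48 to either side.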

Other observations

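Among the 122 pathway genes, 20 had genotypes that did not overlap in TMM-scaled CPM, or 16.4%, against 9.18% of all tested genes; these genes were picked out after their values were seen, and 0 of them passed in edgeR, 5 with an unadjusted p under 0.05. The knockout was above wild type for 11, the receptors Bnip3, Optn and Tax1bp1, the pump subunits Atp6v1a, Atp6v1c1 and Atp6v1h, and Rb1cc1, Ctsc, Ykt6, Atg10 and Uvrag. It was below wild type for 9, Foxo3, Foxo4, Mlst8, Rubcn, Atg16l1, Atg2a, Tollip, Atp6v1b2 and Atp6ap1. The proton pump therefore had subunits on both sides.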
